A study of Drosophila melanogaster with 13 samples.

Results

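Transcripts of the genes for structural cuticle proteins were measured in the Drosophila melanogaster proboscis. The proboscis is the feeding organ of the fly, and the labellum at its end bears the taste bristles. The genes were taken by symbol, as those named Cpr followed by a digit, Twdl, Lcp, Ccp84 or Pcp. This gave 118 of 13893 genes, with 149 annotated transcripts. They comprise 70 Cpr genes, 25 Tweedle genes (Twdl), 15 larval cuticle protein genes (Lcp), 7 genes of the Ccp84 cluster and the pupal cuticle protein gene Pcp.

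Insect cuticle is a layered extracellular matrix of chitin fibres and proteins that epidermal cells secrete at their apical side. Cpr proteins carry the Rebers and Riddiford domain, which binds chitin, and the Lcp, Ccp84 and Pcp proteins belong to the same family under older names. Tweedle proteins form a separate family that is known from mutants with short, wide bodies. Most cuticle protein genes are expressed in bursts around the moults, and the adult cuticle is largely laid down in the pupa, with further layers added after eclosion.

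The study comprised 13 libraries in 4 groups, made from dissected proboscises that the labels list as labellum. In the first experiment, the diets were compared over 7 days in flies whose genotype is listed as parental. A group on high sugar (n = 2) was set against a group on the standard cornmeal control diet (n = 2), with 200 proboscises in each library. The second experiment used high sugar throughout, also for 7 days, and the Gr5a-GAL4 driver, whose Gr5a promoter drives GAL4 in neurons that sense sweet taste, was present in both of its groups. One group had a UAS construct that produces RNA interference against OGT (OGT RNAi, n = 5), and the other had the driver over a wild-type chromosome (Gal4 control, n = 4), with 20 proboscises in each library. OGT is the O-GlcNAc transferase, which attaches a single sugar to proteins inside the cell. There is no control diet group with the driver, and the UAS transgene without the driver is not analysed here. The experiments used different kits (Ovation for model organisms, and Ovation SoLo) and different RNA input, so levels are set side by side between experiments but not tested.

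Total estimated counts were 5632598 to 8105908 in the diet experiment and 8183507 to 13884994 in the RNAi experiment. The gene targeted by the RNA interference, sxc, had 133 to 170 CPM, which are counts scaled by the normalized size of each library, in the OGT RNAi libraries and 142 to 173 CPM in the Gal4 control, a log2 difference of -0.19 ± 0.09 (SE, edgeR adjusted p = 0.376). The driver is meant for neurons that sense sweet taste, and the libraries hold RNA from all cells of the proboscis. The level of sxc within the cells that carry the driver was not measured, so the strength of the knockdown is not known here. Markers of epidermis and trachea were all detected, with a sum of 2798 to 3410 CPM over all 13 libraries. Gal4 control replicate 4 stood apart from the others in markers of the eye. Its 7 markers of eye photoreceptors summed to 704 CPM, while the 12 other libraries had 1.60 to 37.0 CPM, the highest of them being Gal4 control replicate 3. The calls of the RNAi experiment, and the differences of its called cuticle protein genes, are therefore also given without replicate 4. Other values of that experiment include replicate 4 unless stated. The OGT RNAi libraries differed among themselves as well. Eip93F, of the regulator list, had 658 and 724 CPM in replicates 1 and 2 and 178, 215 and 244 CPM in replicates 3 to 5. The neuron marker para had 137 and 161 CPM against 46.4, 50.1 and 37.7 CPM. The Gal4 control libraries varied too, at 240, 243, 376 and 499 CPM for Eip93F in replicates 1 to 4. For para they had 68.1, 68.9, 78.5 and 122 CPM. The cause of these differences between libraries was not tested. All libraries are bulk samples, in which fewer cells of a type and less RNA per cell cannot be told apart.

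A minority of the cuticle protein genes reached 10 counts in a library of the proboscis of these adult flies. The share of all genes of the series that did so was not counted. Of the 118 genes, 16 had no count in any of the 13 libraries and 58 reached at most 9 counts in a library. The other 44 reached 10 counts in at least one library, 15 of them in every library, and 6 had 100 or more in every library. At these depths a count of 0 allows a level of up to 0.216 to 0.533 CPM, for counting error only. By family, 35 of 70 Cpr genes, 6 of 25 Tweedle genes and 3 of 15 Lcp genes reached 10 counts. None of the 7 Ccp84 genes did. Their highest count was 5, for Ccp84Ag in control diet replicate 2, and Ccp84Ad and Ccp84Af were at 0 throughout. Pcp, the pupal cuticle protein gene, had 0 to 3 counts per library.

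Transcript levels were concentrated in one gene. TPM, a scaled transcript level that takes gene length into account, was used to compare levels between genes. Cpr65Au (3L:6131242-6132109, minus strand of the BDGP6 build), a Cpr gene of the 65A cluster, had the highest level in each of the 4 groups. Its level was 1693 and 2621 TPM in the sugar diet libraries and 1838 and 2000 TPM in the control diet libraries. In the RNAi experiment it ranged from 11398 to 14504 TPM with OGT RNAi and from 8757 to 10848 TPM in the Gal4 control. It contributed 54.7 to 62.4% of the TPM of all 118 genes in the diet experiment and 81.6 to 85.03% in the RNAi experiment. All 118 genes together made up 0.309 to 0.420% of TPM in the diet experiment and 1.07 to 1.71% in the RNAi experiment.

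**Figure D1:**
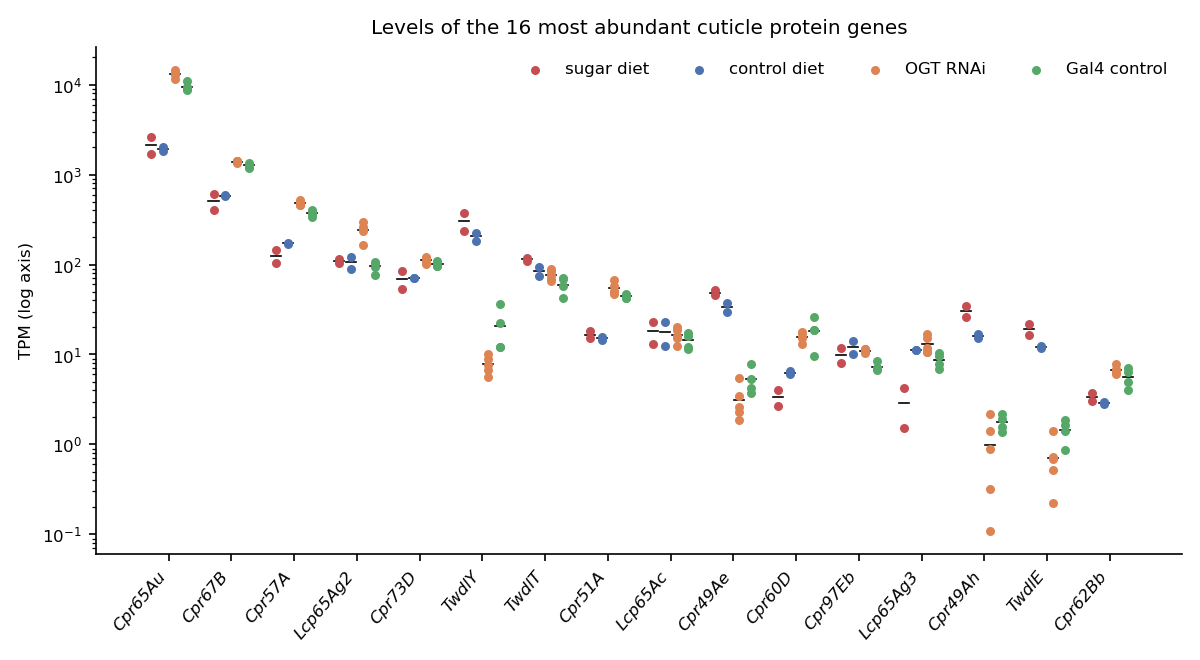
Level in TPM (log axis) of the 16 cuticle protein genes with the highest mean over the 13 libraries. Each point is a library, coloured by group, and short bars are group means. Cpr65Au lies above all others in each group, and TwdlY, Cpr49Ae, Cpr49Ah and TwdlE sit lower in both groups of the RNAi experiment than in both groups of the diet experiment, which differ in kit and input.

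The order below Cpr65Au was stable at first and then depended on the experiment. Cpr67B (3L:9404797-9406174, plus strand) came next, at 510 ± 147 TPM on the sugar diet (SD, n = 2), 580.4 ± 9.92 on the control diet (n = 2), 1391 ± 27.1 with OGT RNAi (n = 5) and 1271 ± 72.7 in the Gal4 control (n = 4). Its range did not meet that of Cpr65Au or that of the gene below it in any of the 4 groups. The next gene in the diet experiment was TwdlY (X:16734947-16735980, plus strand), at 307 ± 99.1 TPM on sugar and 205 ± 29.3 TPM on the control diet, ahead of Cpr57A at 124 ± 29.9 and 171 ± 1.496 TPM. On the sugar diet Cpr57A, TwdlT and Lcp65Ag2 overlapped in level, and on the control diet Lcp65Ag2 and TwdlT did. In the RNAi experiment Cpr57A was at 482 ± 25.6 TPM with OGT RNAi and 371 ± 25.8 TPM in the Gal4 control, while TwdlY was at 7.80 ± 1.80 and 20.9 ± 11.5 TPM.

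The genes lie in clusters, and detection was uneven within them. With neighbours joined across gaps of up to 20000 bases, 15 clusters of 3 or more genes held 85 of the 118. The largest, 17 Cpr and Lcp genes at 65A (3L:6130386-6161589), had 4 genes with 10 or more counts (Cpr65Au, Lcp65Ag2, Lcp65Ag3 and Lcp65Ac), and Cpr65Au gave 97.9% of the TPM of the cluster. In 3 clusters no gene reached 10 counts. These were Lcp1 to Lcp4, the larval cuticle protein genes of the second chromosome, the 7 Ccp84 genes (3R:6686728-6704903), and 12 Tweedle genes (3R:26619118-26641054), 6 of which had no count at all. TwdlT, which is among the most abundant, lies at 3R:27049220-27051004, apart from those 12. In the cluster of 4 Tweedle genes on the X chromosome, TwdlY gave 99.7% of the TPM.

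The first comparison asked what a week of high sugar does to transcript levels in the proboscis. On the sugar diet 7 cuticle protein genes rose, by 1.43 to 4.65-fold, and none fell. They were the Tweedle genes TwdlT and TwdlE and the Cpr genes Cpr49Ae, Cpr49Ah, Cpr62Bc, Cpr64Ac and Cpr65Au. Of the 118 genes, 31 passed the filter on low counts and were tested. Of all 8825 genes tested, 6.47% were called at an adjusted p under 0.05, 3.12% higher and 3.35% lower. DESeq2 called 5 of the 31, all higher (TwdlT, TwdlE, Cpr49Ae, Cpr49Ah and Cpr65Au), where it called 3.89% of all tested genes. At an unadjusted p under 0.05 there were 12 higher and 1 lower (Lcp65Ag3) of the 31, where 17.7% of all tested genes were under it. Of the 31 cuticle protein genes, 26 had a positive and 5 a negative log2 difference, with a median of 0.52 where the median of all tested genes was 0.0037. The groups did not overlap in 22 of the 31, where 47.5% of all tested genes were separate. Of the 22, 19 were higher and 3 lower on sugar, where 23.6% of all tested genes were separate and higher and 23.9% separate and lower. The filter bears on these tallies of direction, by an amount that was not tested. Cpr64Ac, the largest rise, and Cpr64Aa passed it through the sugar libraries only, and Lcp65Ag3, lower on sugar, through the control libraries only. Cpr11B, Cpr50Ca, Cpr65Eb and Cpr66Cb met it in both sugar libraries but not in both control libraries. The count of calls fell when a control library was left out and rose when a sugar library was left out. Without control diet replicate 1 it was 2 (TwdlT and Cpr49Ah), and without control diet replicate 2 it was 3 (these and Cpr49Ae). The median was 0.29 without sugar diet replicate 1. Each of these fits leaves a group with a single library, which is assumed to vary like the others.

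Among the 4 tested Tweedle genes all differences were positive, with a median of 0.81, and 2 passed the test. TwdlT had 138 and 123 CPM on sugar against 73.0 and 84.2 CPM on the control diet. Both sugar libraries lay above both control libraries, a log2 increase of 0.72 ± 0.10 (SE, edgeR adjusted p = 0.000156). TwdlE (2L:7857957-7860839, minus strand) had 16.8 and 18.5 CPM against 9.49 and 9.20 CPM. It rose by 0.92 ± 0.19 on the log2 scale (SE, edgeR adjusted p = 0.00536), again without overlap. It was not called without control diet replicate 1 (adjusted p = 0.0619) or replicate 2 (adjusted p = 0.0694). TwdlE overlaps lectin-28C on the opposite strand, and whether counting used strand is not stated in the labels. TwdlY, the most abundant of the family here, had 283 and 146 CPM on sugar and 107 and 122 CPM on the control diet. All sugar values were above all control values. The sugar libraries lay far from each other, and the difference of 0.90 ± 0.47 did not pass (edgeR adjusted p = 0.529). It was called when sugar diet replicate 1 (0.35) or replicate 2 (1.31) was left out. Its counts were not whole in any of the 13 libraries, as happens where reads match several transcripts, and goe overlaps it on the opposite strand. The diet difference of goe was -0.11 (edgeR adjusted p = 0.802). The counts of TwdlT were whole in 8 of the 13 libraries. TwdlG had a difference of 0.39 ± 0.45, with overlapping groups.

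Of 24 tested Cpr genes, 5 rose and 20 had positive differences, with a median of 0.59. A pair of them lie in the 49A cluster of 8 genes on chromosome arm 2R, with Cpr49Af and Cpr49Ag between them. Cpr49Ae had 40.7 and 37.5 CPM on sugar against 20.4 and 23.6 CPM on the control diet, and rose by 0.83 ± 0.14 (log2, SE, edgeR adjusted p = 0.00147). Cpr49Ah had 18.4 and 20.0 CPM against 9.37 and 7.83 CPM, a rise of 1.16 ± 0.19 (edgeR adjusted p = 0.000918). In both genes the groups were separate. Without control diet replicate 1 Cpr49Ae missed the threshold (0.72, adjusted p = 0.0548). The third tested gene of the cluster, Cpr49Ac, had a difference of 0.03 ± 0.53.

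The other Cpr genes that rose differed widely in level. Cpr62Bc (3L:1840281-1842084, minus strand) had 8.49 and 6.55 CPM on sugar against 3.25 and 2.72 CPM, a rise of 1.32 ± 0.30 (log2, SE, edgeR adjusted p = 0.0123). Its counts were whole in 4 of the 13 libraries, and not in those of the diet experiment. It was not called without control diet replicate 1 (adjusted p = 0.0773) or replicate 2 (adjusted p = 0.147). Cpr64Ac (3L:4211964-4212915, minus strand) rose by 2.22 ± 0.60 (edgeR adjusted p = 0.0332) on 9 and 17 counts against 4 and 4. It was tested only because its sugar libraries met the filter, so its rise is not independent of the filter. It stood at the edge of the filter and overlaps CG43367 on the opposite strand, and it was not called without sugar diet replicate 2 (adjusted p = 0.339), control diet replicate 1 (adjusted p = 0.345) or control diet replicate 2 (adjusted p = 0.366). CG43367 had a diet difference of 0.05 (edgeR adjusted p = 0.823). Just outside the filter were Cpr97Ea and Cpr72Eb, each with at most 16 counts.

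Cpr65Au, the most abundant gene, had 497 and 646 CPM on sugar against 386 and 412 CPM on the control diet. The groups did not overlap in CPM and the rise was 0.52 ± 0.11 (log2, SE, edgeR adjusted p = 0.0106). It was not called without control diet replicate 1 (0.47, adjusted p = 0.170) or replicate 2 (0.57, adjusted p = 0.0648), and its levels per length overlapped between the diets. The next genes in abundance showed no call. Cpr67B had 296 and 366 CPM on sugar and 324 and 308 CPM on the control diet, a difference of 0.07 ± 0.09 (edgeR adjusted p = 0.777), and was called without sugar diet replicate 1 (0.21, adjusted p = 0.0479). Cpr57A had 44.8 and 51.6 CPM against 57.3 and 53.9 CPM, all lower on sugar, with a difference of -0.20 ± 0.12 (edgeR adjusted p = 0.398). Cpr97Eb, at 6.12 and 7.50 CPM against 5.996 and 7.72 CPM, had a difference of -0.0045 ± 0.26.

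**Figure D2:**
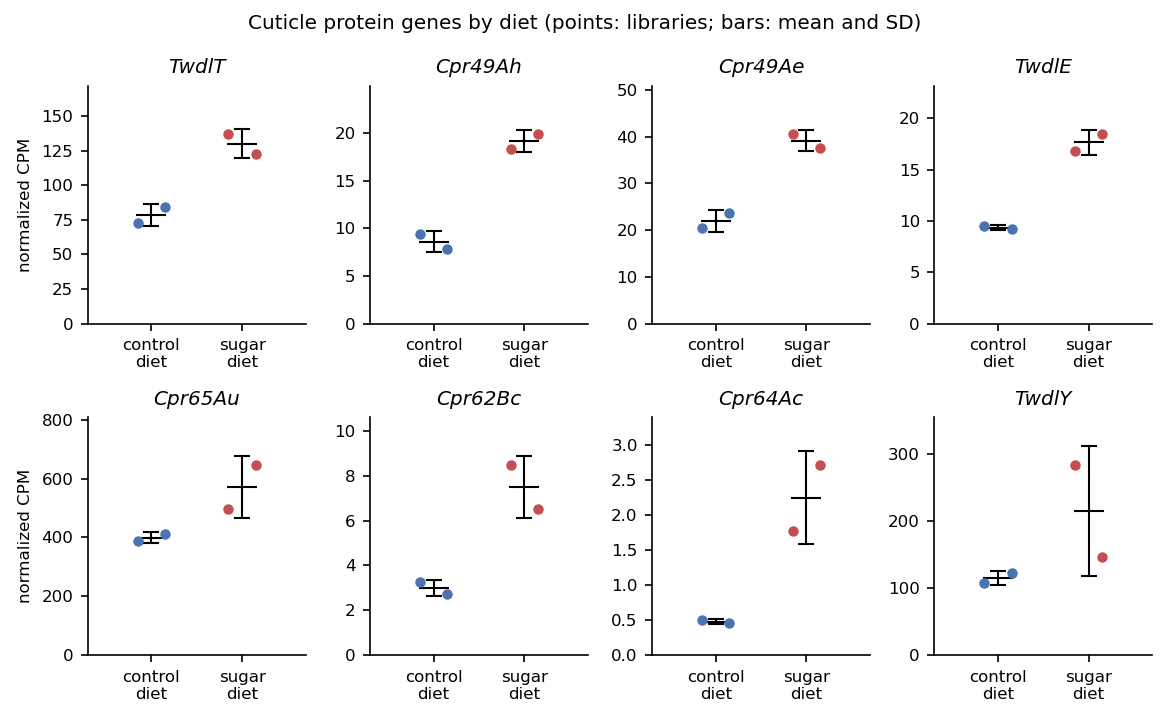
Normalized CPM of the 7 cuticle protein genes that rose on the sugar diet, with TwdlY, which did not pass the test. Points are libraries, and bars give the mean and SD of 2 libraries per group. In all 8 panels both sugar libraries lie above both control libraries, and in TwdlY the sugar libraries are 283 and 146 CPM.

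None of the 3 tested Lcp genes was called for diet by edgeR or DESeq2, and their median difference was 0.29. At an unadjusted p under 0.05 there were 2, Lcp65Ag2 higher and Lcp65Ag3 lower. Lcp65Ag2 had 31.8 and 30.2 CPM on sugar and 21.6 and 27.7 CPM on the control diet, a difference of 0.32 ± 0.15 (edgeR adjusted p = 0.282). Lcp65Ag3, of the same cluster, pointed the other way, with 0.395 and 1.12 CPM on sugar against 2.75 and 2.50 CPM. The groups were separate, and the difference of -1.71 ± 0.55 missed the threshold (edgeR adjusted p = 0.0802), but passed it without sugar diet replicate 2 (-2.68, adjusted p = 0.0364). Lcp65Ac overlapped between the diets, with 6.32 and 3.03 against 2.75 and 4.65 CPM. The counts of Lcp65Ag2 and Lcp65Ag3 were not whole numbers in any of the 13 libraries, as happens where reads match several transcripts. Summed over Lcp65Ag1, Lcp65Ag2 and Lcp65Ag3 the diet difference was 0.22 (edgeR adjusted p = 0.485).

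The gene-level table the authors deposited lists 43 of the 118 genes for the diet comparison, with 5 at a q-value under 0.05, all higher on sugar. These are TwdlT, TwdlE, Cpr49Ae, Cpr49Ah and Cpr62Bc. The share of all genes listed by the authors that fell under this q-value was not counted. In the authors' deposited table Cpr65Au had a natural-log effect of 0.272 with q = 0.386.

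Other genes that build or modify the cuticle moved in both directions with diet. Of 74 tested genes in the other cuticle lists 7 rose and 5 fell, where 6.47% of all tested genes were called. Of 6 tested structural cuticle proteins whose symbols are not among those taken, Acp65Aa, an adult cuticle protein gene, rose by 1.02 ± 0.20 (log2, SE, edgeR adjusted p = 0.00550). Of 24 tested genes of chitin synthesis and modification 3 rose and 3 fell. Those included serp, a chitin deacetylase (0.56 ± 0.11), Cht6, a chitinase (0.84 ± 0.19), Idgf6 of the chitinase-like family (-0.79 ± 0.09) and Pgm, which interconverts glucose phosphates (-0.71 ± 0.11). Of 8 tested zona pellucida proteins of the apical matrix 2 rose, zye (1.00 ± 0.08) and dpy, the giant matrix protein dumpy (0.46 ± 0.10). In the tanning list 1 of 16, yellow-d, fell by 0.64 ± 0.13. Among 4 tested genes of cuticular hydrocarbons, Cyp4g1, the decarbonylase of oenocytes, had 9.28 and 7.34 CPM on sugar against 0.625 and 0.568 CPM and rose by 3.76 ± 0.40. The desaturase gene Desat1 fell by 0.88 ± 0.08. None of 16 tested regulators of cuticle genes was called by edgeR or DESeq2, and 1 had an unadjusted p under 0.05. In all, 12 genes of these lists were called, but 5 without control diet replicate 1 and 6 without replicate 2.

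Markers of cell types moved between the diets as well. Of 63 tested markers 13 rose and 6 fell, where 6.47% of all tested genes were called. Of 14 tested muscle markers 6 rose, and the sum over the 16 listed was 33253 to 38991 CPM on sugar against 27133 to 27515 CPM. Of 13 epidermal and tracheal markers 2 rose, and their sum was 3179 to 3410 CPM against 3183 to 3217 CPM, without separation. Of 4 tested fat body markers 3 fell and 1 rose (sum over 9 listed 1118 to 1140 against 1472 to 1539 CPM), and of 3 gut markers 2 fell (55.5 to 67.9 against 162 to 164 CPM, with Jon99Ci at 0). Of the other marker lists, 1 of 9 neuron, 2 of 6 glia and 1 of 6 haemocyte markers rose, and 1 of 7 labellar taste cell markers, Obp49a, fell. The single tested eye marker was not called. The part of these differences in the results for the cuticle protein genes was not tested.

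Cpr65Au has 2 annotated transcripts that differ by 73 bases at the 3′ end. In the sugar diet libraries all of the estimated counts of the gene were given to the longer one, 2518 and 4048 counts. In the control diet libraries the shorter one received 1241 and 603 counts, that is 40.1 and 16.6% of the gene. It received 49.9 to 58.7% with OGT RNAi and 48.7 to 55.8% in the Gal4 control, all of which were on the sugar diet too. The authors' deposited table gives the shorter transcript a natural-log effect of -7.26 for diet (q = 1.34e-12) and the longer one 0.694 (q = 0.188). Reads that fall in the shared sequence cannot be told apart, and the share is then an estimate of the quantifier. The gene also overlaps the antisense RNA asRNA:CR46005.

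**Figure D3:**
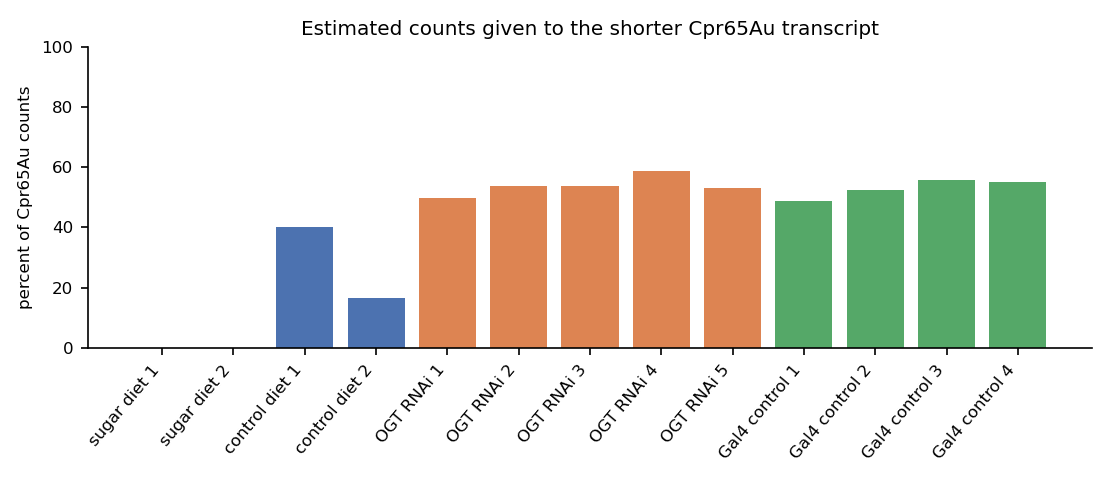
Percent of the estimated counts of Cpr65Au given to its shorter transcript in each library, from 0 to 100. Both sugar diet libraries are at 0, the control diet libraries are at 40.1 and 16.6%, and the 9 libraries of the RNAi experiment lie between 48.7 and 58.7%.

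The second comparison asked how transcript levels on the sugar diet differ when RNA interference against OGT is driven by Gr5a-GAL4. With OGT RNAi 4 cuticle protein genes rose, by 1.29 to 2.57-fold, and none fell. They were Lcp65Ag2, Cpr65Au, Cpr57A and Cpr97Eb. Of the 118 genes 25 were tested, and of all 9399 tested genes 1.27% were called, 1.04% higher and 0.223% lower. DESeq2 called 6 of the 25, the same 4 with Cpr76Bd higher and TwdlY lower, where it called 2.83% of all tested genes. At an unadjusted p under 0.05 there were 12 higher and 3 lower of the 25, where 12.9% of all tested genes were under it. Of the 25, 18 had a positive and 7 a negative difference, with a median of 0.29 where that of all genes was 0.0034. The groups did not overlap in 11 of the 25, where 5.55% of all tested genes were separate. Of the 11, 10 were higher and 1 lower, where 3.77% of all tested genes were separate and higher and 1.79% separate and lower. Cpr100A, among the 10, passed the filter through the OGT RNAi libraries only. Without Gal4 control replicate 4, the library with eye markers, 1 gene was called, Lcp65Ag2, and the same held without Gal4 control replicate 1. Without OGT RNAi replicate 3 there were 2, Lcp65Ag2 and Cpr57A. The median was 0.19 without OGT RNAi replicate 5.

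Lcp65Ag2, a larval cuticle protein gene of the 65A cluster, differed most among the 4 genes called. It had 86.9, 79.0, 73.9, 52.5 and 76.1 CPM in OGT RNAi replicates 1 to 5 and 30.0, 28.0, 34.1 and 23.0 CPM in the Gal4 control. The lowest RNAi library was above the highest control library, and the rise was 1.36 ± 0.14 (log2, SE, edgeR adjusted p = 0.00123). Without Gal4 control replicate 4 it was 1.27 (adjusted p = 0.00330). Summed over Lcp65Ag1, Lcp65Ag2 and Lcp65Ag3, the rise was 1.31 (adjusted p = 0.000447). Lcp65Ag3 alone had a difference of 0.58 ± 0.20 (edgeR adjusted p = 0.216), with 3.96 ± 0.957 CPM (SD, n = 5) against 2.60 ± 0.395 CPM (n = 4), and Lcp65Ac one of 0.24 ± 0.18.

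Of 17 tested Cpr genes 3 rose. Cpr65Au had 3197, 3235, 3448, 3015 and 3714 CPM with OGT RNAi and 2148, 2700, 2507 and 2177 CPM in the Gal4 control. All RNAi values were above all control values, with a rise of 0.48 ± 0.09 (log2, SE, edgeR adjusted p = 0.0145). It lies between Lcp65Ag3 and Lcp65Ag2 in the cluster. Cpr57A had 207, 195, 201, 207 and 211 CPM against 149, 168, 171 and 146 CPM and rose by 0.37 ± 0.07 (edgeR adjusted p = 0.0156). Its counts were not whole in any of the 13 libraries. Obp57d overlaps it on the same strand and had -0.21 (adjusted p = 0.445). Cpr97Eb (3R:27089704-27091130, minus strand) had 7.69, 7.98, 8.73, 8.12 and 8.60 CPM against 5.10, 6.14, 5.41 and 4.88 CPM, a rise of 0.61 ± 0.12 (edgeR adjusted p = 0.0175). In each of the 3 genes the groups were separate. Without Gal4 control replicate 4 the differences of Cpr65Au, Cpr57A and Cpr97Eb were 0.44, 0.33 and 0.57, with adjusted p of 0.0728, 0.0761 and 0.0728. Without Gal4 control replicate 1 they were 0.43, 0.34 and 0.58, with adjusted p of 0.0610, 0.0730 and 0.0730. Without OGT RNAi replicate 3 Cpr65Au (0.46, adjusted p = 0.0501) and Cpr97Eb (0.58, adjusted p = 0.0601) missed the threshold, as did Cpr97Eb without Gal4 control replicate 3 (0.61, adjusted p = 0.0501).

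Other Cpr genes did not pass. Cpr49Ae had a difference of -0.76 ± 0.31, and was called lower without OGT RNAi replicate 4 (-1.05, adjusted p = 0.0343). Cpr76Bd was separate at 2.58 ± 0.694 against 1.33 ± 0.127 CPM, a difference of 0.96 ± 0.24 (edgeR adjusted p = 0.0684). Cpr67B had 990 ± 44.2 against 884 ± 64.4 CPM, with overlap and a difference of 0.16 ± 0.07 (edgeR adjusted p = 0.337). Cpr73D and Cpr51A, whose groups were separate with differences of 0.20 ± 0.07 and 0.31 ± 0.10, overlap the more abundant genes Ogdh and CG30197 on the opposite strand. Ogdh had a difference of -0.05 (edgeR adjusted p = 0.822) and CG30197 one of 0.19 (edgeR adjusted p = 0.302). Cpr62Bc lay just outside the filter, with at most 16 counts.

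Of 5 tested Tweedle genes none was called by edgeR, 3 had an unadjusted p under 0.05, and DESeq2 called TwdlY. Their median was -0.56. TwdlY had 4.72, 7.28, 5.66, 4.31 and 6.41 CPM with OGT RNAi and 8.55, 25.7, 9.08 and 16.2 CPM in the Gal4 control. The groups were separate, with a wide spread in the control, and the difference of -1.38 ± 0.36 had an edgeR adjusted p of 0.146. TwdlE had a difference of -1.07 ± 0.41 at 0.723 ± 0.466 against 1.43 ± 0.460 CPM (edgeR adjusted p = 0.263). The gene on its opposite strand, lectin-28C, rose by 1.28 (edgeR adjusted p = 0.0146). TwdlT had 94.2 ± 10.5 CPM with OGT RNAi and 71.5 ± 14.8 CPM in the Gal4 control, separate groups, with a difference of 0.40 ± 0.13 (edgeR adjusted p = 0.225).

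**Figure D4:**
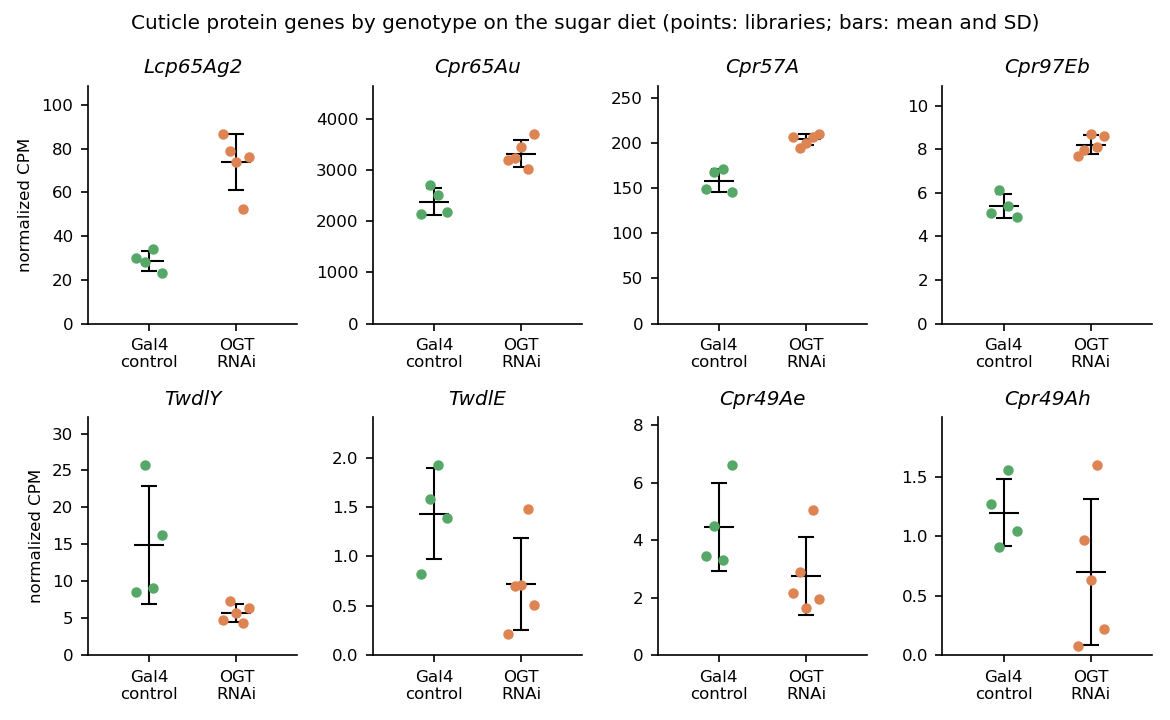
Normalized CPM in the RNAi experiment of the 4 cuticle protein genes that rose (upper panels) and of TwdlY, TwdlE, Cpr49Ae and Cpr49Ah, which did not pass the test (lower panels). Points are libraries and bars give the mean and SD of 4 Gal4 control and 5 OGT RNAi libraries. The groups are separate in the upper panels and in TwdlY.

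The gene-level table that the authors deposited for the RNAi comparison lists 30 of the 118 genes, with 5 at a q-value under 0.05 and all higher with OGT RNAi. These are the 4 genes above and Cpr76Bd. As for diet, the share of all genes listed by the authors under this q-value was not counted. In the other lists, obst-E, a chitin-binding cuticle protein gene, rose by 0.55 ± 0.08 (edgeR adjusted p = 0.00314), and so did kkv, the chitin synthase of the epidermis (0.80 ± 0.17, adjusted p = 0.0420), serp (0.45 ± 0.10, adjusted p = 0.0437) and amd of the tanning list (0.45 ± 0.10, adjusted p = 0.0404). These were 1 of 5, 2 of 24 and 1 of 16 tested genes of the lists of other structural proteins, chitin and tanning. In all, 4 of 71 tested genes of the other cuticle lists were called, where 1.27% of all tested genes were called. The 4 calls became 1 without OGT RNAi replicate 1 or 3 or Gal4 control replicate 1, 3 or 4, 2 without Gal4 control replicate 2, and 7 without OGT RNAi replicate 4. None was called by edgeR or DESeq2 among 7 apical matrix proteins, 16 regulators and 3 hydrocarbon genes, with 1 at an unadjusted p under 0.05 in each. In the cell type lists edgeR called none of 67 tested genes, 8 had an unadjusted p under 0.05 and DESeq2 called 1, of the fat body. Of all tested genes edgeR called 1.27%, 12.9% had an unadjusted p under 0.05 and DESeq2 called 2.83%. Muscle markers summed to 18353 to 23313 CPM with OGT RNAi and 18291 to 25308 CPM in the Gal4 control, and those of epidermis and trachea to 2798 to 3303 and 3025 to 3313 CPM, with overlap in each.

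The comparisons share no library, and 20 of the cuticle protein genes were tested in both. Of these, 12 had positive differences in both, 5 were positive for diet and negative for RNAi, 3 were negative for diet and positive for RNAi, and none was negative in both. Cpr65Au was the one gene called in both, at 0.52 ± 0.11 for diet and 0.48 ± 0.09 for RNAi. Genes called for diet had differences for RNAi of 0.40 ± 0.13 (TwdlT), -0.76 ± 0.31 (Cpr49Ae), -0.93 ± 0.53 (Cpr49Ah) and -1.07 ± 0.41 (TwdlE). Those called for RNAi had differences for diet of 0.32 ± 0.15 (Lcp65Ag2), -0.20 ± 0.12 (Cpr57A) and -0.0045 ± 0.26 (Cpr97Eb). The difference between the 2 comparisons was not tested.

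**Figure D5:**
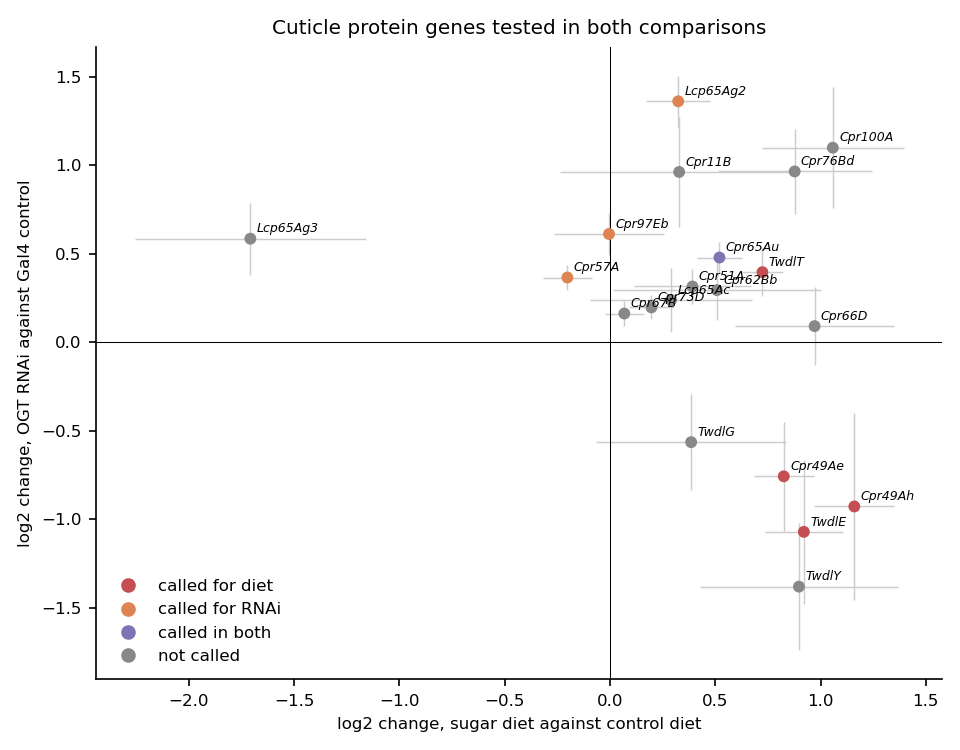
Log2 difference of the 20 cuticle protein genes tested in both comparisons, for diet (horizontal axis) and for RNAi (vertical axis). Points are genes coloured by call, and bars are standard errors. TwdlG, TwdlE, TwdlY, Cpr49Ae and Cpr49Ah lie to the right of and below zero, and Cpr65Au is called in both.

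The annotation text in the authors' tables names the stages of peak expression for 45 of the 118 genes, 21 of them pupal only, 15 embryonic or larval only and 9 several. This grouping was made after the values were seen and is a description. For diet, 5 of 13 tested pupal genes rose and 12 were positive, with a median of 0.85, beside 42 that rose and 17 that fell among all 572 tested genes with a pupal peak, at a median of 0.06. None of 10 embryonic or larval genes was called by edgeR or DESeq2, with 2 at an unadjusted p under 0.05 and a median of 0.31, and 2 of 8 genes with several peaks rose. Of all tested genes in these classes, 4.46% of 2487 and 6.13% of 4615 were called, and 10.3% of those with a pupal peak. For RNAi, 1 of 9 pupal, 2 of 11 embryonic or larval and 1 of 5 genes with several peaks rose. Of all tested genes in these classes, 3.64% of 577, 1.24% of 2667 and 0.940% of 4894 were called.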

How the data were processed

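Reads of 13 proboscis libraries had been trimmed with Trimmomatic 0.22, quantified with kallisto 0.43 and tested with sleuth, per the submitters' processing notes. The deposited tables hold the authors' estimated counts per transcript (expected counts, not normalized), their effective length in bases, and TPM, which kallisto scales within a library. The authors' deposited result tables hold p-values, q-values and effects as natural logs. The build and the strand setting are not given in the sources used here. Positions are from BDGP6 (release 6), and were identical for all 45 cuticle genes that the authors' annotation places. No sequence is shown.

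Estimated counts were summed per gene and rounded, leaving out 52 targets without a gene (0.042 to 0.0569% of counts). Each experiment was fitted alone with edgeR 4.0.16 (R 4.3.3): filterByExpr (minimum count 10, minimum total 15), TMM scaling and the robust two-sided quasi-likelihood F test, adjusted by Benjamini-Hochberg over all tested genes and called under 0.05. CPM are TMM-normalized. TPM of a gene are the sum over its transcripts. Replicates are listed as biological, and on that ground each was counted as a separate sample. Chi-square per degree of freedom between them was 7.24 to 36.4. It was lowest between OGT RNAi replicates 1 and 2 (7.24) and 3 and 4 (7.60). Values above counting error cannot show that samples are independent. Reads had no molecular identifiers in these files, so counting limits cover counting error only. Alternatives were DESeq2 1.42.0, limma 3.58.1 on log2(TPM + 0.5), other scaling and filters, a replicate block, and each library left out.

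The genes and lists were chosen with earlier results of these data known. Named genes are those called, the 3 with the highest mean TPM in each family and those at the edge of the filter, and up to 4 called genes of each other list. Others with values (Cpr49Ac, Cpr76Bd, Cpr51A, Cpr73D, TwdlG, Cpr72Ec, Cpr78Ca, TwdlQ, Cpr100A, Eip93F and para) were chosen after their values were seen.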

Additional observations from a re-analysis of the deposited data

Results flagged for a closer look

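In groups of 4 or 5 libraries, 57 groups of values of cuticle protein genes were examined for a library far from the others, and 4 were found. The 57 are the groups in which a library reached 10 counts. Where groups are not picked by their values, chance alone gives such a library in about 1 in 20 groups. Cpr72Ec, TwdlQ and Cpr78Ca reached 10 counts in the Gal4 control through replicate 4 only. Their counts were 165, 11 and 12 there and at most 4 in the other Gal4 control libraries. The rate of 1 in 20 therefore does not hold for these 3 groups. In 3 of the 4 groups found the library is Gal4 control replicate 4, which also held the eye photoreceptor markers. In it ninaE, the main rhodopsin, was at 575 CPM, against at most 27.7 CPM in the 12 other libraries. Cpr72Ec, known as a protein of the corneal lens, had 14.4 CPM there and 0 to 0.367 CPM in the other Gal4 control libraries. TwdlQ had 0.958 CPM there and 0 in the others. Cpr78Ca had 1.04 CPM there and 0.166 to 0.300 CPM in the others, but reached 1.12 CPM in a control diet library without such markers. Cpr66D, another protein known from the corneal lens, was at 2.35 CPM in that library, within the range of 1.49 to 4.15 CPM of the others, and Crys, also known from the lens, at 0.261 CPM. The part of eye tissue in these values was not tested. In OGT RNAi replicate 1, Cpr100A had 1.60 CPM, where the other OGT RNAi libraries had 0.738 to 0.947 CPM.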

How the results depend on the processing

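With 2 libraries a diet group, and many genes under 10 counts, small differences are not detectable at this depth. Over 26 gene results and 347 alternative values, 298 kept direction and call, 32 lost the call, 9 gained it and 8 changed sign. The sign changes were all in diet differences that were not called: Cpr67B (-0.22 with limma on TPM, and -0.094 to 0.214 with a library left out), Cpr97Eb (0.0028 with the length offset, 0.016 with all 13 libraries in one fit, and -0.172 to 0.192 with a library left out) and Lcp65Ac (-0.296 to 0.758 with a library left out). For diet, 571 genes were called, 343 with DESeq2, 318 with all 13 libraries in one fit and 195 (without control diet replicate 1) to 938 (without sugar diet replicate 2) with a library left out. The 7 cuticle genes became 5 with DESeq2, 4 with limma on TPM (Cpr49Ah, Cpr62Bc and Cpr64Ac, and Lcp65Ag3 lower; the median of all genes was then -0.27), 2 with all 13 libraries (TwdlT and Cpr65Au) and 2 to 10 with a library left out. Their median of 0.52 became 0.40 without the filter, 0.32 with limma, 0.64 with the length offset and 0.29 to 0.75 with a library left out. The 12 calls in other cuticle lists became 7 with DESeq2, 7 with all 13 libraries and 5 (without control diet replicate 1) to 18 (without sugar diet replicate 1) with a library left out. For RNAi, 119 genes were called, 266 with DESeq2 and 42 (without Gal4 control replicate 4) to 264 (without OGT RNAi replicate 4) with a library left out. The 4 cuticle genes became 6 with DESeq2 (with Cpr76Bd, and TwdlY lower) and 1 to 6 with a library left out. Their median of 0.29 became 0.12 without the filter and 0.19 to 0.31 with a library left out. The 4 calls in other lists became 9 with DESeq2, 1 with limma on TPM and 1 to 7 with a library left out. The cause was not tested.

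Deviations from the group mean correlated between same-numbered libraries at 0.0048 for diet and at -0.249 to 0.165 for RNAi. Differently numbered libraries of the RNAi experiment had -0.209 to 0.224. With 2 libraries in each diet group, these deviations mirror each other, so the diet value cannot show whether the samples were paired. With the replicate block the diet comparison called 728 genes and 9 cuticle genes. The RNAi comparison with the block called 63 genes, 3 cuticle genes (Lcp65Ag2, Cpr65Au, and TwdlY lower) with a median of 0.22, and 1 gene of the other lists.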
